A study of Mus musculus with 6 samples.

Results

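The potassium channel genes described here are the protein-coding mouse genes whose symbol starts with Kcn. The rule was applied to the symbol paired with each Ensembl identifier of the count table and found 94 genes among 55471 identifiers, while 5 noncoding genes with a Kcn symbol were left out. They comprise 30 pore-forming voltage-gated (Kv) genes, 10 modulatory Kv genes whose products do not form channels alone, 15 inward-rectifier (Kir) genes, 14 tandem-pore (K2P) genes, 8 calcium- or sodium-activated genes and 17 genes of auxiliary subunits and regulators. RNA sequencing was done on primary cortical neurons of CD1 mouse embryos taken at E14.5-15, labelled wild type, and grown for 11 days. All cultures received 2 uM cytosine arabinoside, which stops dividing cells, and lentivirus on day 6. In 3 libraries the virus carried a control short hairpin RNA (shControl) and in 3 a hairpin against Opa1 (shOpa1), the GTPase that fuses inner mitochondrial membranes. The hairpin sequences, the promoter that drives them and the share of cells transduced are not given in the sources used here. Nothing in the labels says whether the replicates came from separate litters, so the p-values speak only of how far these libraries differ.

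Potassium channels let potassium leave the cell along its gradient, which sets the resting potential of a neuron and ends each action potential. Kv channels open on depolarisation and assemble from several pore subunits, with cytosolic and membrane partners that alter their gating and delivery. Kir channels pass current best near the resting potential, K2P channels carry the background leak, and calcium- and sodium-activated channels follow spikes with an afterhyperpolarisation. Cortical neurons place them by compartment, with Kv1 along axons, Kv2 on somata, Kv4 in dendrites and Kv7 at the axon initial segment.

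Library totals ran from 24676709 to 32961580 counts. Opa1 stood at 202, 205 and 202 CPM in the shControl libraries, where CPM are counts scaled by library size and the trimmed mean of M values, and at 10.2, 8.64 and 8.50 CPM under the Opa1 hairpin. The first principal component, with 56.5% of the variance, separated shControl from shOpa1. The second, with 26.4%, split both libraries numbered 3 from the rest. Deviations from the group means were most alike between libraries with the same number. Neuron markers were abundant, with a sum over 8 genes of 8552 to 9249 CPM in shControl and 6354 to 6824 CPM in shOpa1, and 5 of the 8 were called lower and 2 higher, where 20% of all tested genes were called lower and 18.9% higher. Glutamatergic markers were called lower for 4 of 8 tested (sums 782 to 886 and 472 to 533 CPM), and GABAergic ones for 4 of 9 with 1 higher (2554 to 3112 and 1762 to 2370 CPM). Astrocyte markers summed to 253 to 425 CPM in shControl and 128 to 191 CPM in shOpa1, with 2 of 9 tested called lower and 1 higher. With the replicate number as a block in the fit, calls lower numbered 6 of 8 for neuron markers, 7 of 8 for glutamatergic, 7 of 9 for GABAergic and 6 of 9 for astrocyte markers (30.7% of all tested genes). Microglial markers summed to 3.36 to 8.72 CPM, endothelial and pericyte markers to 5.87 to 11.9 CPM, oligodendrocyte markers to 38.5 to 75.8 CPM and progenitor markers to 46.6 to 116 CPM, and no marker of any list was at 0 in all libraries. In bulk RNA, fewer cells of a type and less RNA per cell cannot be told apart, and the part of these marker differences in the channel results was not tested.

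Potassium channel transcripts were lower in shOpa1 in most classes. Of the 94 genes, 73 passed the low-count filter, and 33 of these fell and 4 rose (adjusted p under 0.05 in edgeR's quasi-likelihood test, by Benjamini-Hochberg over 16562 genes). The 33 are 45.2% of the tested members, beside 20% of all tested genes called lower, and the 4 are 5.48%, beside 18.9% called higher. The 4 that rose were Kcns1, Kcng2, Kcna5 and Kcnk1. The median log2 fold change was -0.43, against -0.01 over all tested genes, and it was -0.43, -0.42 and -0.45 within pairs 1, 2 and 3. A fall of at least 2-fold was called for 16 members, beside 5.65% of all genes, and a rise of that size for 2, beside 3.14%. In 37 members all 3 shOpa1 libraries lay below all 3 shControl libraries (background 26.0%) and in 5 above them (background 25.8%). With the replicate number as a block, 49 members were called lower (background 30.7%) and 8 higher (background 28.8%). Without shControl replicate 1, and likewise without shControl replicate 2, 2 members were called higher. Across the 73 members the log2 fold change had a Spearman rho of 0.06 with the shControl level per kilobase and -0.08 with gene length, points that come from the same 6 libraries.

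**Figure D1:**
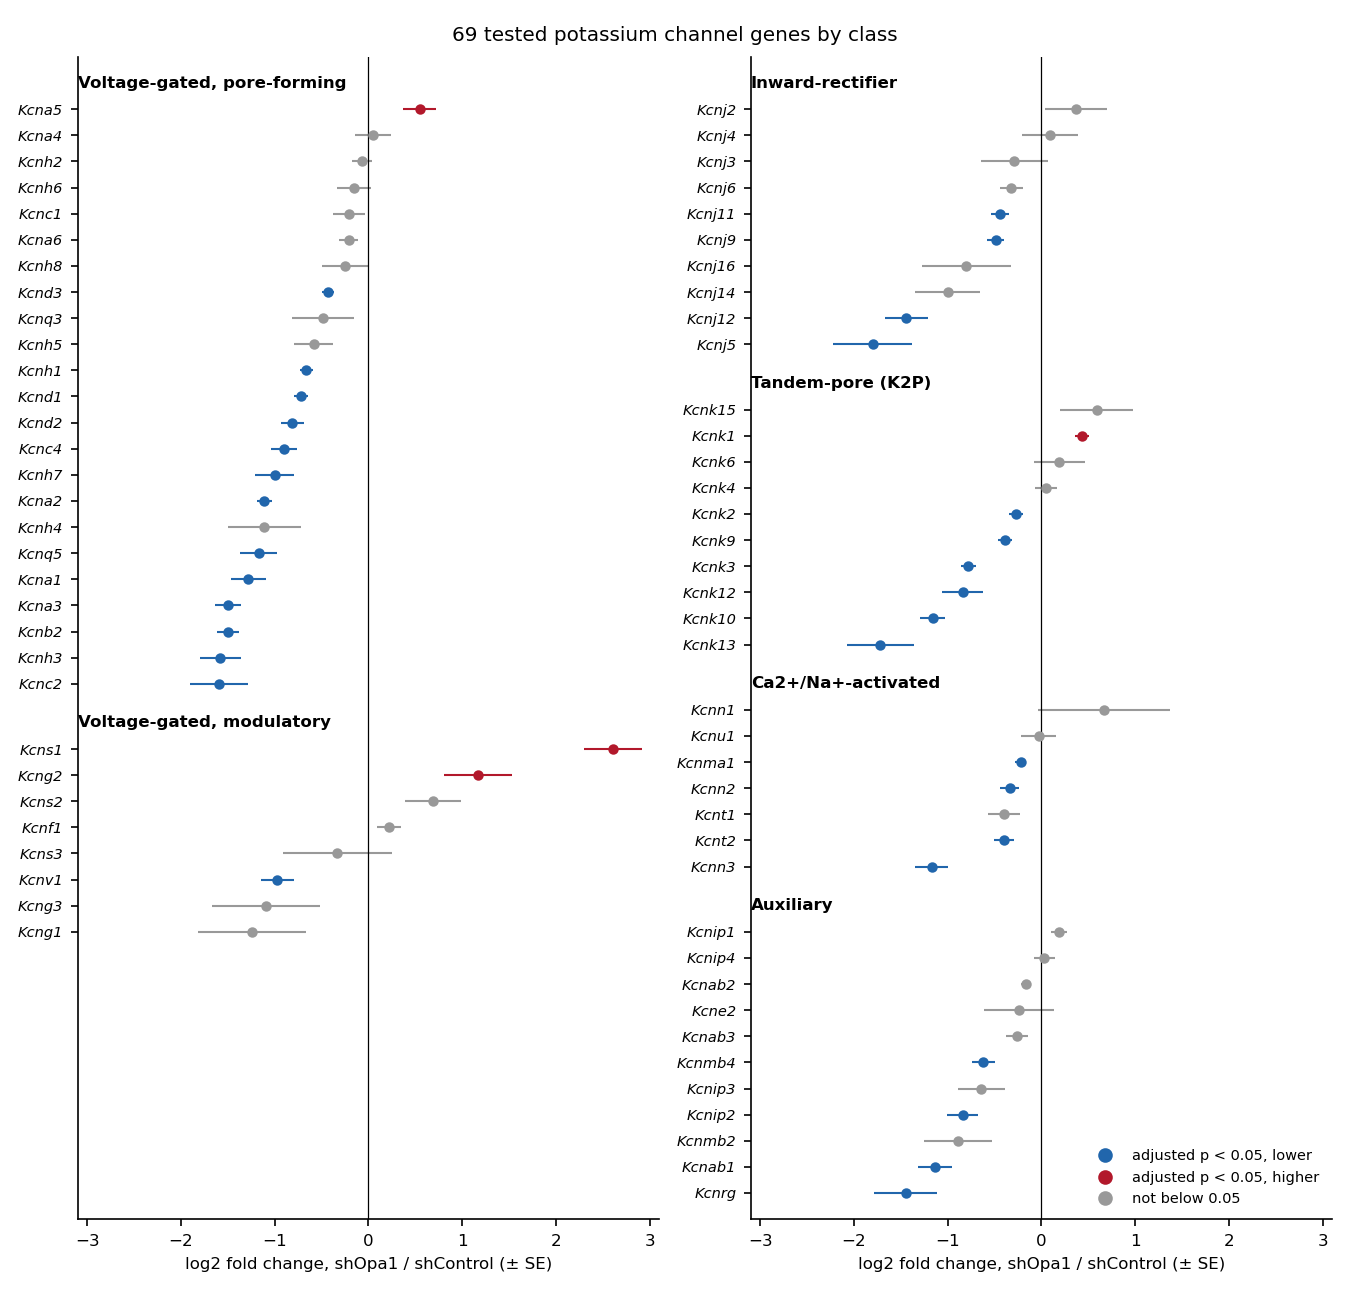
Log2 fold change of 69 tested potassium channel genes, shOpa1 over shControl (x axis), with its standard error as a bar, grouped by class and sorted within it. Blue marks 32 genes called lower, red 4 called higher and grey 33 not called. Of the 69 points 54 lie left of 0, and the modulatory Kv genes span the widest range, from -1.24 to 2.61.

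Summed over the family, the level per kilobase of exon (CPM per kb) was 539, 565 and 527 in shControl and 420, 430 and 437 in shOpa1. The groups did not overlap, and their means were 544 ± 19.7 and 429 ± 8.38 CPM per kb (SD, n = 3), a ratio of 0.789. Values after ± are SDs over the 3 libraries of a group from here on. Pore-forming Kv genes held the largest part, 254 ± 11.8 CPM per kb in shControl and 179 ± 16.1 in shOpa1, a ratio of 0.705. Auxiliary genes went from 73.7 ± 6.14 to 55.5 ± 0.479 and K2P genes from 75.8 ± 4.20 to 60.0 ± 1.57 CPM per kb, both without overlap. The modulatory Kv genes went the other way, from 33.1 ± 0.628 to 38.8 ± 3.35 CPM per kb. Kir genes (75.0 ± 16.6 and 67.7 ± 13.1) and calcium- or sodium-activated genes (32.2 ± 3.84 and 27.8 ± 6.80) overlapped between groups. These sums are a description and were not tested.

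**Figure D2:**
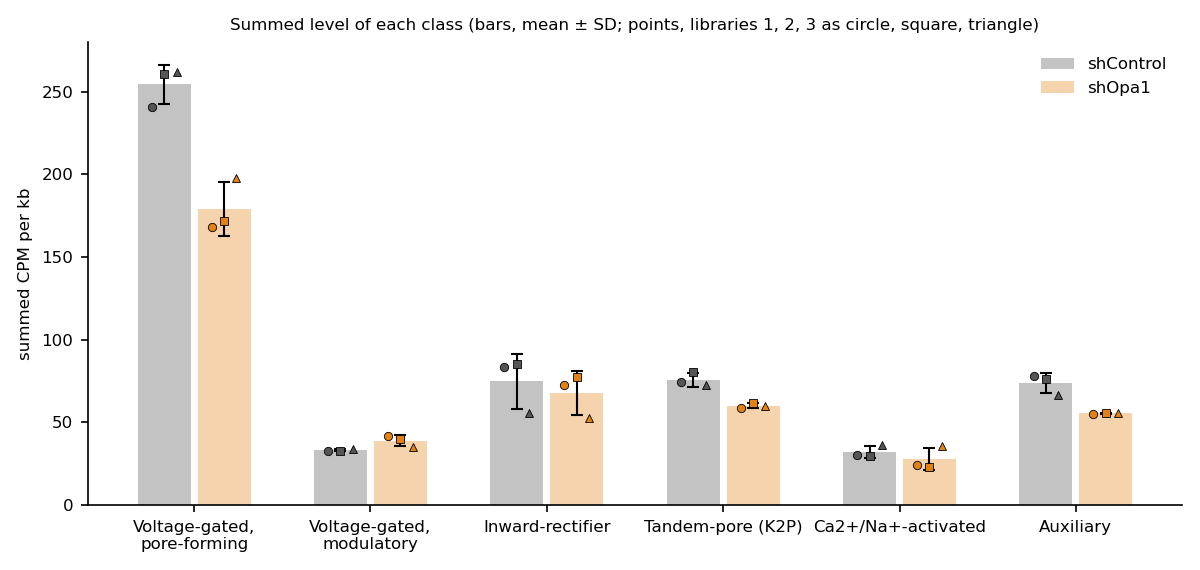
Summed level per kilobase (CPM per kb, y axis) of each potassium channel class in shControl (grey) and shOpa1 (orange). Bars are means with SD of 3 libraries, and circles, squares and triangles are libraries 1, 2 and 3. The pore-forming Kv class falls from 254 to 179, and in the Kir and calcium- or sodium-activated classes the triangles stand apart from the other libraries in both groups.

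Per kilobase in shControl, high levels were found for Kcnj4 at 39.7 ± 13.5, Kcnk9 at 30.2 ± 2.70, Kcnip2 at 27.5 ± 6.19 and Kcnd2 at 26.5 ± 2.09 CPM per kb. The SD ranges of these neighbours overlapped. Kcna6 stood at 20.6 ± 1.86, and its SD range lay below that of Kcnd2. They include a Kir channel, a leak channel and an A-type channel with its calcium-binding partner.

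The 7-base sequence GAAACTA was searched for in the 3′ untranslated regions (UTRs) of the members, because genes that carry it had already been seen to be lower in these data. It had been picked on the same fold changes, so the counts below describe the members and support nothing further. The longest 3′ UTR of each tested member was searched (GENCODE mouse release M21, GRCm38, transcript strand only). The sequence was found in 9 of 73 members, or 12.3%, beside 9.63% of 13850 tested genes with a UTR of at least 50 bases. Sites of the 4 Kv genes that carry it and fell at least 2-fold are shown here to let the copies be compared, each with the coordinates and strand of the 7 bases, which are in capitals.
Kcna2 copy 1, chr3:107109293-107109299, plus strand: tggtccaaGAAACTAtaggattc
Kcna2 copy 2, chr3:107113296-107113302, plus strand: ctagcatgGAAACTAatctaact
Kcnb2 copy 1, chr1:15716752-15716758, plus strand: agaggaaaGAAACTAaaagaaac
Kcnb2 copy 2, chr1:15717620-15717626, plus strand: aacaaacaGAAACTAggaactct
Kcnb2 copy 3, chr1:15719437-15719443, plus strand: aatgtgttGAAACTAcgtggcct
Kcnh7 copy 1, chr2:62700995-62701001, minus strand: aatttaagGAAACTAatctttta
Kcnh7 copy 2, chr2:62697375-62697381, minus strand: aatgaaaaGAAACTAtcacaaag
Kcnh7 copy 3, chr2:62695749-62695755, minus strand: aatttaaaGAAACTAaaaaattt
Kcnq5 copy 1, chr1:21400847-21400853, minus strand: ccacataaGAAACTAccggctca

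The other carriers were Kcng3, Kcnrg, Kcnma1, Kcnt2 and Kcnj14, with 1 copy each. Of the 9, 7 were called lower and 0 higher, with a median log2 fold change of -1.09, while Kcng3 (-1.09) and Kcnj14 (-1.0) did not pass. Of the 64 members without it, 26 were called lower and 4 higher, with a median of -0.36. Among all tested genes, 50.3% of carriers were called lower and 8.02% higher, against 18.7% and 22.1% of the others. Carriers had longer 3′ UTRs, with a median of 3760 bases in members with the sequence and 1703 in members without. The part of UTR length was not tested.

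**Figure D3:**
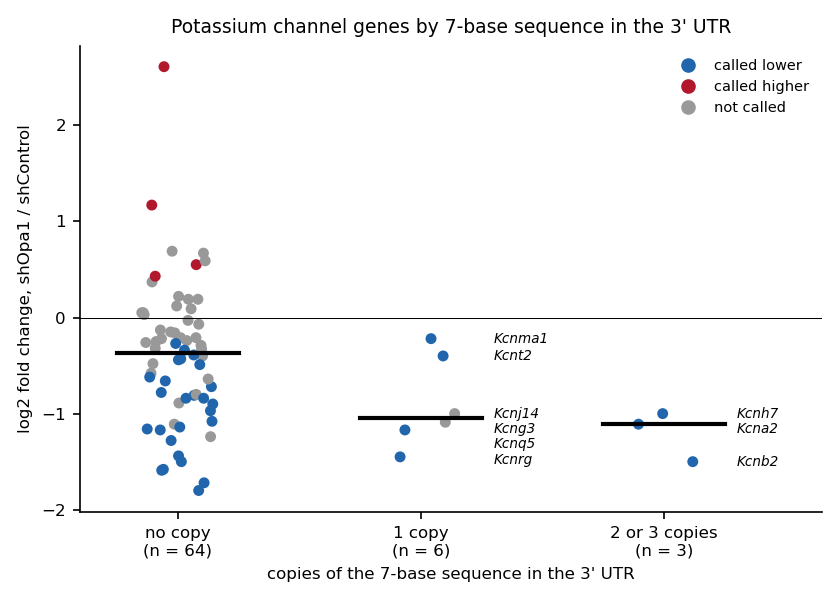
Log2 fold change, shOpa1 over shControl (y axis), of the 73 tested members, split by copies of the 7-base sequence in the 3′ UTR (x axis). Points are genes, spread sideways for display, coloured by call, and black lines are medians. The 9 carriers all lie below 0, and the 64 others run from -1.80 to 2.61 with a median of -0.36.

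Pore-forming Kv genes fell more often than they rose. Of 30 genes, 27 were tested, of which 14 were called lower and 1 higher, with a median log2 fold change of -0.66 and 24 values below 0. With the block 20 were called lower. Over all tested genes, 20% were called lower and 18.9% higher, and 30.7% were called lower with the block.

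Within Kv1, the Shaker family of axonal channels, Kcna2, Kcna3 and Kcna1 fell and Kcna5 rose. Kcna2, a main axonal subunit, was measured at 90.7, 103 and 99.6 CPM in shControl and 42.3, 45.5 and 48.6 CPM in shOpa1. Every shOpa1 library held less than every control library, a 2.15-fold fall (log2 fold change -1.11, SE 0.0808, adjusted p = 0.000113). Kcna3, known best from lymphocytes and also found on axons, went from 12.7, 15.8 and 16.1 to 4.67, 5.37 and 5.75 CPM. The groups were far apart, and the fall was 2.83-fold (log2 fold change -1.50, SE 0.139, adjusted p = 0.000301). Kcna1, the subunit mutated in episodic ataxia, had means of 13.1 ± 2.62 in shControl and 5.41 ± 0.794 in shOpa1 CPM and fell 2.42-fold (log2 fold change -1.28, SE 0.183, adjusted p = 0.00172). Kcna5, known from atrial muscle, was low, at 3.35, 3.18 and 4.15 CPM in shControl and 5.38, 4.44 and 5.81 CPM in shOpa1. All shOpa1 libraries were higher (log2 fold change 0.55, SE 0.176, adjusted p = 0.0436), but the call was lost without shControl replicate 1, shControl replicate 2, shOpa1 replicate 1 or shOpa1 replicate 3, with adjusted p between 0.102 and 0.138, and with no low-count filter (0.0572). Kcna4, a rapidly inactivating subunit, had means of 27.7 ± 5.15 in shControl and 28.6 ± 6.05 in shOpa1 CPM and a log2 fold change of 0.05 (adjusted p = 0.875). Kcna6 had the highest Kv1 level per kilobase, with 110, 125 and 132 CPM in shControl and 97.0, 103 and 118 CPM in shOpa1. Those ranges overlapped and the test was not passed (log2 fold change -0.21, SE 0.0978, adjusted p = 0.134), although the block called it lower (adjusted p = 0.00268), and 39.6% of its exon length overlaps other genes. The Kv1 sum per kilobase went from 46.4 ± 2.33 to 33.5 ± 0.978, and the share of Kcna6 in it from 44.3 ± 2.35% to 53.1 ± 3.82%.

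Kv2 genes encode delayed rectifiers of the soma and proximal dendrites. Kcnb2 was measured at 20, 21.8 and 21 CPM in shControl and 7.06, 6.57 and 8.50 CPM in shOpa1. No shOpa1 library came near a control library, and the fall was 2.84-fold (log2 fold change -1.50, SE 0.119, adjusted p = 0.000157).

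Kv3 channels repolarise quickly and serve fast-spiking neurons. Kcnc2 went from 50.1, 49.0 and 30.4 to 18.4, 15.8 and 8.96 CPM. Library 3 was the lowest in each group, yet the groups did not overlap, and the fall was 3.00-fold (log2 fold change -1.59, SE 0.309, adjusted p = 0.00823), with an adjusted p of 0.0591 under no low-count filter. The interneuron peptide Sst was also lowest in the libraries numbered 3, at 1063, 1136 and 704 CPM in shControl and 578, 573 and 264 CPM in shOpa1 (log2 fold change -1.04, adjusted p = 0.0485). The same held in both groups for the GABAergic markers Gad1, Npy, Dlx1, Dlx2, Lhx6 and Vip, but not for Gad2, Slc32a1 and Pvalb. Gad2, an enzyme of GABA synthesis, rose, from 331, 311 and 362 to 430, 430 and 409 CPM (log2 fold change 0.34, adjusted p = 0.00780). Slc32a1, the vesicular GABA transporter, fell, from 269, 311 and 321 to 207, 214 and 196 CPM (log2 fold change -0.55, adjusted p = 0.00192), and its control replicate 3 was the highest. The part of interneuron content in the Kcnc2 value was not tested. Kcnc4 also fell, from 64.9 ± 5.33 to 34.9 ± 6.56 CPM (log2 fold change -0.90, SE 0.136, adjusted p = 0.00230). Kcnc1 had a log2 fold change of -0.21 (adjusted p = 0.369, 0.00597 with the block). Within the Kv3 sum, the share of Kcnc4 went from 37.8 ± 1.84% to 28.7 ± 0.629%.

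All 3 Kv4 genes, which encode the A-type channels of dendrites, fell. Kcnd2 had the highest level of them per kilobase, with 130, 149 and 130 CPM in shControl and 84.0, 85.2 and 63.8 CPM in shOpa1. The groups were separate, with shOpa1 replicate 3 the lowest value, and the fall was 1.75-fold (log2 fold change -0.81, SE 0.122, adjusted p = 0.00216). Kcnd1 went from 25.4, 27.3 and 27.3 to 15.7, 16.5 and 16.2 CPM. Its libraries were tightly grouped, and it fell 1.65-fold (log2 fold change -0.72, SE 0.0755, adjusted p = 0.000470). Kcnd3 went from 163 ± 8.23 to 121 ± 2.12 CPM, a 1.34-fold fall (log2 fold change -0.43, SE 0.0598, adjusted p = 0.00159). The Kv4 sum was 48.5 ± 2.56 and 30.8 ± 2.44 CPM per kb, and the share of Kcnd3 in it went from 35 ± 1.66% to 41.2 ± 3.07%.

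Kv7 subunits form the M-current, a slow current that limits repetitive firing and is closed by muscarinic receptors. Kcnq5 went from 73.8, 78.1 and 51.7 CPM to 32.3, 34.5 and 23.6 CPM and fell 2.25-fold (log2 fold change -1.17, SE 0.198, adjusted p = 0.00418), without overlap. Kcnq3, another subunit of this current, had a log2 fold change of -0.48 (adjusted p = 0.295, 2.51e-05 with the block), with high values in both libraries numbered 3.

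The Kcnh genes encode the ether-a-go-go (EAG), ERG and ELK channels, and all 8 had values below 0 (Kcnh2 stood at 0.05 with scaling by library size alone). Of these 8, 3 were called lower, beside 20% of all tested genes. Kcnh1, an EAG channel, went from 51.3, 51.8 and 53.1 to 33.7, 30.7 and 34.7 CPM. The control libraries were close together and all exceeded the shOpa1 libraries (1.58-fold, log2 fold change -0.66, SE 0.0694, adjusted p = 0.000499). Kcnh3, an ELK channel of forebrain neurons, went from 53.3, 53.3 and 49.2 to 12.8, 15.5 and 23.8 CPM. The groups were separate and pair 3 differed least, with log2 differences of -2.02, -1.75 and -1.03 in pairs 1 to 3, and the fall was 2.99-fold (log2 fold change -1.58, SE 0.217, adjusted p = 0.00184). Kcnh7, an ERG channel, had means of 50.4 ± 10.8 in shControl and 25.1 ± 5.28 in shOpa1 CPM and a log2 fold change of -1.0 (adjusted p = 0.00975). Kcnh2, the ERG channel of cardiac repolarisation, had the highest level of these per kilobase and a log2 fold change of -0.07 (adjusted p = 0.637). Kcnh4 (-1.11, adjusted p = 0.0651) and Kcnh5 (-0.58, adjusted p = 0.0630) missed the threshold and passed it with the block (1.90e-06 and 0.00780). Kcnh6 (-0.15) and Kcnh8 (-0.25) were called in neither fit.

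The modulatory Kv genes encode silent subunits that join Kv2 subunits and change their gating. Of 10 genes, 8 were tested, with 2 called higher and 1 lower, beside 18.9% and 20% of all tested genes. Their median log2 fold change was -0.05, and it ran from -0.28 to 0.24 without each library in turn. With the block 4 were called higher and 3 lower, beside 28.8% and 30.7% of all tested genes. Kcns1 (ENSMUSG00000040164, chromosome 2, 164163619 to 164171113, GRCm38), a subunit that neurons co-express with Kv2 channels, was measured at 1.38, 1.49 and 1.97 CPM in shControl and 6.83, 8.79 and 14.2 CPM in shOpa1. All shOpa1 libraries were several times above the controls and spread widely among themselves, and the rise was 6.12-fold (log2 fold change 2.61, SE 0.307, adjusted p = 0.000821). Kcng2, another silent subunit, was low, at 2.18, 1.12 and 3.08 CPM and 4.35, 3.85 and 6.17 CPM. Its groups were separate (2.25-fold, log2 fold change 1.17, SE 0.364, adjusted p = 0.0390), and the call was lost without any 1 library other than shControl replicate 3 (adjusted p 0.0601 to 0.0996). Kcnv1, a subunit that suppresses or alters Kv2 currents, went from 19.9, 22.1 and 24.8 to 8.86, 11.3 and 13.9 CPM. It was lower in every shOpa1 library (1.96-fold, log2 fold change -0.97, SE 0.172, adjusted p = 0.00420). Kcnf1, the most abundant silent subunit, was measured at 76.5, 74.3 and 70.2 CPM in shControl and 101, 85.7 and 70.7 CPM in shOpa1. Pair 3 held the same level and pair 1 did not, and the test was passed with the block but not without it (log2 fold change 0.22, SE 0.125, adjusted p = 0.207; 0.0254 with the block). Kcns2, of the same group as Kcns1, was measured at 41.4, 42.7 and 29.7 CPM and 72.5, 75.1 and 36.1 CPM. Its shOpa1 replicate 3 lay within the control range (log2 fold change 0.69, SE 0.296, adjusted p = 0.112; 0.00112 with the block). Kcng1 (log2 fold change -1.24, adjusted p = 0.134) and Kcng3 (-1.09, 0.175) were called lower with the block and not without it (0.00123 and 0.0401), and Kcns3 (-0.33) in neither fit.

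**Figure D4:**
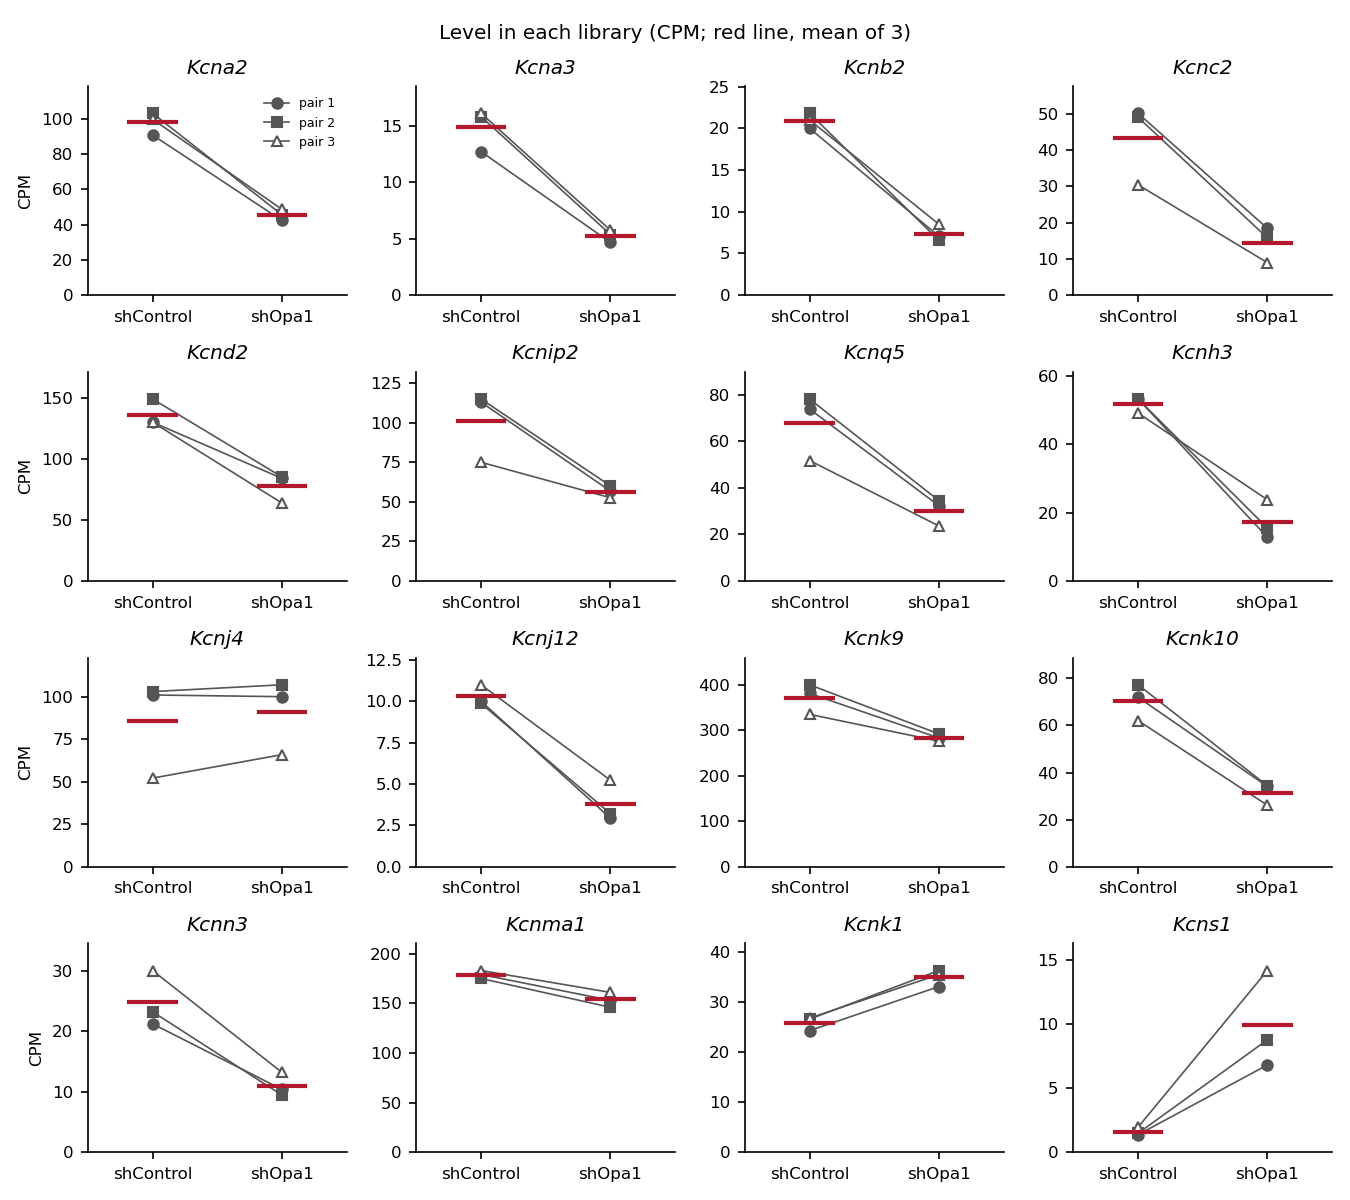
Level in each library (CPM, y axes from 0) of 16 potassium channel genes in shControl and shOpa1. Lines join libraries with the same number, open triangles are number 3, and red bars are means of 3. Kcnk1 and Kcns1 rise in every pair, and in Kcnj4 both libraries numbered 3 lie below the others.

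Of the 15 inward-rectifier genes, 10 were tested, with 4 called lower, 0 called higher and a median of -0.46, and 7 were called lower with the block. The shares over all tested genes were 20% lower and 18.9% higher, and 30.7% lower with the block. Kcnj12, a strong inward rectifier, went from 10, 9.87 and 11.0 to 2.93, 3.21 and 5.23 CPM. Replicate 3 of shOpa1 was the closest to the controls but still below them, and the fall was 2.72-fold (log2 fold change -1.44, SE 0.225, adjusted p = 0.00246). Kcnj9, a G protein-gated (GIRK) subunit, went from 31.9, 34.6 and 31.9 to 21.9, 22.2 and 25.9 CPM. It was lower in every shOpa1 library (1.41-fold, log2 fold change -0.49, SE 0.0909, adjusted p = 0.00496). Kcnj11, the pore of the ATP-sensitive channel, went from 29.0, 29.4 and 33.3 to 20.7, 22.8 and 24.2 CPM. Groups were separate, with a 1.35-fold fall (log2 fold change -0.44, SE 0.0933, adjusted p = 0.00903). Its regulatory partner Abcc8 had means of 36.9 ± 3.46 and 29.9 ± 5.34 CPM (log2 fold change -0.30, adjusted p = 0.118, 0.00158 with the block). Kcnj5, a GIRK subunit of atrium and some neurons, was low, at 2.60, 3.66 and 2.19 CPM and 0.483, 1.37 and 0.550 CPM. It fell 3.48-fold (log2 fold change -1.80, SE 0.424, adjusted p = 0.0138), a call lost without shControl replicate 2 (adjusted p = 0.0553). Kcnj4, a strong rectifier of forebrain neurons and the member with the highest level per kilobase, was measured at 101, 103 and 52.1 CPM and 100, 107 and 65.9 CPM. Both libraries numbered 3 were low, and the groups overlapped (log2 fold change 0.09, SE 0.299, adjusted p = 0.841). Kcnj3, the common GIRK subunit, was measured at 74.5, 71.7 and 41.5 CPM and 61.0, 64.4 and 28.0 CPM. It had the same low libraries 3 and passed with the block but not without it (log2 fold change -0.29, SE 0.360, adjusted p = 0.567; 0.00325 with the block). Kcnj6 (-0.32, adjusted p = 0.0784) and Kcnj14 (-1.0, 0.0561) also passed with the block and not without it (0.00803 and 0.0174). Kcnj10, the astrocyte inward rectifier, did not pass the filter and was not tested.

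K2P genes, the leak channels, included 6 of 10 tested that were called lower and 1 higher, with a median of -0.33. Beside these counts, 20% of all tested genes were called lower and 18.9% higher. Kcnk9 (TASK family) had the highest level per kilobase, with 381, 400 and 335 CPM in shControl and 283, 292 and 276 CPM in shOpa1. The groups did not overlap and the fall was 1.31-fold (log2 fold change -0.39, SE 0.0762, adjusted p = 0.00617). Kcnk3, its closest relative, went from 39.4, 45.6 and 39.8 to 23.1, 25.1 and 24.5 CPM. It fell 1.72-fold, in every pair (log2 fold change -0.78, SE 0.0830, adjusted p = 0.000515). Kcnk10, of the mechanosensitive TREK family, went from 72.0, 77.3 and 62.1 to 34.1, 34.4 and 26.1 CPM. All shOpa1 libraries lay well below the controls, and the fall was 2.23-fold (log2 fold change -1.16, SE 0.131, adjusted p = 0.000661). Kcnk2, its relative, went from 36.1 ± 0.523 to 29.9 ± 1.96 CPM (log2 fold change -0.27, SE 0.0726, adjusted p = 0.0219), a call lost with scaling by library size alone (adjusted p = 0.136) and without any 1 library other than shOpa1 replicate 3 (0.0509 to 0.0898). Kcnk13, a THIK channel known from microglia and also found in neurons, was low, at 4.32, 4.63 and 3.04 CPM and 1.61, 1.40 and 0.611 CPM. Every shOpa1 library was below the controls, a 3.30-fold fall (log2 fold change -1.72, SE 0.357, adjusted p = 0.00799). Aif1, the single microglial marker that passed the filter, went from 7.42, 4.75 and 5.78 to 3.48, 2.66 and 2.81 CPM, and no other of the 9 exceeded 0.545 CPM in a library. Of those, Cx3cr1 had means of 0.0622 and 0.267 CPM and Csf1r of 0.182 and 0.340 CPM in shControl and shOpa1. Tmem119 and C1qb also had higher means in shOpa1, while Itgam, P2ry12, C1qa and Trem2 had lower ones. The part of microglial RNA in the Kcnk13 value was not tested. Kcnk12, the other THIK gene, fell 1.79-fold (log2 fold change -0.84, SE 0.216, adjusted p = 0.0186), with adjusted p of 0.0527 without shControl replicate 2, 0.0661 without shOpa1 replicate 1 and 0.0616 without shOpa1 replicate 2. Kcnk1 (TWIK; ENSMUSG00000033998, chromosome 8, 125995170 to 126030685) went the other way, from 24.3, 26.6 and 26.8 to 33.1, 36.3 and 35.5 CPM. It was higher in every shOpa1 library, a 1.35-fold rise (log2 fold change 0.43, SE 0.0761, adjusted p = 0.00410), with differences of 0.44, 0.44 and 0.40 in log2 for pairs 1 to 3. Its share of the K2P sum per kilobase went from 15.3 ± 1.08% to 26.0 ± 0.597%, while that of Kcnk10 went from 10.6 ± 0.705% to 5.99 ± 0.912%.

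Among calcium- and sodium-activated channels, 4 of 7 tested genes were called lower and 0 higher, with a median of -0.34. Of all tested genes, 20% were called lower and 18.9% higher. The count lower was 1 without shControl replicate 1, without shOpa1 replicate 2 or with scaling by library size alone, and 2 without shControl replicate 2 or shOpa1 replicate 1. Kcnn3, an SK channel of the afterhyperpolarisation, went from 21.2, 23.2 and 30.0 to 10.4, 9.46 and 13.2 CPM. Its libraries 3 were the highest in each group, and the groups were separate, a 2.25-fold fall (log2 fold change -1.17, SE 0.174, adjusted p = 0.00205). Kcnma1, the BK channel pore, was measured at 179, 175 and 183 CPM and 153, 146 and 161 CPM. The shOpa1 libraries were all lower by a small margin, a 1.17-fold fall (log2 fold change -0.22, SE 0.0599, adjusted p = 0.0231). That call was lost with scaling by library size alone (adjusted p = 0.233) and without shControl replicate 1 (0.0659), shControl replicate 3 (0.0567), shOpa1 replicate 1 (0.0713) or shOpa1 replicate 2 (0.101). Kcnn2, another SK channel, went from 18.4, 19.4 and 15.7 to 14.3, 14.4 and 13.7 CPM. It fell 1.26-fold (log2 fold change -0.34, SE 0.104, adjusted p = 0.0369), and the call was lost without any 1 library other than shControl replicate 3 (0.0662 to 0.125), with no low-count filter (0.0565) and with scaling by library size alone (0.143). Kcnt2, a sodium-activated channel, went from 12.0, 11.0 and 11.1 to 9.35, 8.56 and 7.95 CPM. It fell 1.32-fold (log2 fold change -0.40, SE 0.108, adjusted p = 0.0221), with adjusted p of 0.0797, 0.0557 and 0.0787 without shControl replicate 1, shControl replicate 2 and shOpa1 replicate 2, and 0.0845 with scaling by library size alone. Kcnt1, the other sodium-activated channel, was measured at 92.8, 95.6 and 118 CPM and 67.3, 66.8 and 98.6 CPM. Per kilobase, Kcnt1 at 10.8 ± 1.46 and Kcnma1 at 10.5 ± 0.253 led the class in shControl, with overlapping SD ranges. Replicate 3 of shOpa1 exceeded the first 2 controls, and the gene passed with the block but not without it (log2 fold change -0.40, SE 0.174, adjusted p = 0.115; 9.28e-05 with the block). Kcnn1 was measured at 9.05, 9.27 and 26.1 CPM and 11.8, 11.1 and 47.8 CPM. Its libraries 3 were several times above the others in both groups (log2 fold change 0.67, SE 0.706, adjusted p = 0.498; 0.00245 with the block). Kcnu1, a sperm channel grouped here with its relative Kcnma1, had a log2 fold change of -0.03 (adjusted p = 0.911).

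Auxiliary genes were tested for 11 of 17, with 4 called lower, 0 higher and a median of -0.62, and 8 lower and 1 higher with the block. The shares over all tested genes were 20% lower and 18.9% higher, and 30.7% and 28.8% with the block. The median was -0.36 without shControl replicate 3 and likewise without shOpa1 replicate 1, -0.40 without shControl replicate 1, and -0.19 with no low-count filter. These runs covered 12 members, and 16 with no low-count filter. KChIPs are calcium-binding partners of Kv4. Kcnip2, the highest of them per kilobase, went from 113, 115 and 75.0 to 56.8, 60.1 and 52.6 CPM. Control replicate 3 was the lowest control but still above all shOpa1 libraries, and the fall was 1.79-fold (log2 fold change -0.84, SE 0.164, adjusted p = 0.00694). The share of Kcnip2 in the KChIP sum went from 57.9 ± 7.79% to 45.3 ± 2.90%, and that of Kcnip1 from 15.5 ± 2.79% to 24.4 ± 1.53%. Kcnip1 had a log2 fold change of 0.19 (adjusted p = 0.117, 0.00939 with the block), Kcnip3 of -0.64 (0.0852, 1.67e-05 with the block) and Kcnip4 of 0.03 (0.862). The ratio of Kcnip2 to Kcnd2 per kilobase was 1.22, 1.09 and 0.810 in shControl and 0.948, 0.989 and 1.16 in shOpa1, with no separation of the groups. Kv beta subunits attach to Kv1. Kcnab1 went from 7.96, 7.10 and 5.75 to 3.67, 2.89 and 2.90 CPM. All its shOpa1 libraries were lower, a 2.20-fold fall (log2 fold change -1.14, SE 0.181, adjusted p = 0.00267). Kcnab2, the main Kv beta subunit of brain, went from 113, 110 and 107 to 98.3, 97.6 and 98.9 CPM. The groups did not overlap, but the difference was small and narrowly missed the threshold (log2 fold change -0.16, SE 0.0537, adjusted p = 0.0522; 0.0127 with the block). Kcnmb4, the neuronal beta subunit of BK channels, went from 6.88, 7.40 and 8.05 to 5.09, 4.82 and 4.59 CPM. It fell 1.54-fold (log2 fold change -0.62, SE 0.125, adjusted p = 0.00702), and 31.5% of its exon length overlaps other genes. The ratio of Kcnmb4 to the BK pore gene Kcnma1 per kilobase was 0.196, 0.216 and 0.224 in shControl and 0.169, 0.169 and 0.145 in shOpa1, without overlap, and that of Kcnab1 to Kcna2 overlapped (0.0615 to 0.0936 and 0.0637 to 0.0927). Kcnmb2 had a log2 fold change of -0.89 (adjusted p = 0.0916, 0.000136 with the block). Kcnrg, a regulator that hinders Kv assembly, was low, at 1.30, 1.87 and 1.59 CPM and 0.322, 0.642 and 0.764 CPM. It fell 2.74-fold (log2 fold change -1.45, SE 0.333, adjusted p = 0.0122), and adjusted p was 0.0522 without shControl replicate 2. Kcne2 was the single Kcne gene tested (log2 fold change -0.24, adjusted p = 0.651).

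Libraries numbered 3 differed from numbers 1 and 2 for many members in both groups. The sign of that offset was the same in shControl and shOpa1 for 61 of 73 members. It was at least 0.5 in log2 in both groups for 7 members that were higher in libraries 3 (Kcng1, Kcng2, Kcnh4, Kcnh8, Kcnq3, Kcnip3 and Kcnn1) and for 7 that were lower (Kcns3, Kcnh7, Kcnc2, Kcnmb2, Kcnj2, Kcnj3 and Kcnj4). Of these 14, Kcng2 rose and Kcnh7 and Kcnc2 fell without the block, and Kcng1, Kcnh4, Kcnq3, Kcnip3, Kcnmb2 and Kcnj3 were called lower and Kcnn1 higher with the block and not without it. Pairs 1 and 2 alone gave 48 of the 73 members lower (background 26.1%) and 8 higher (background 24.8%). All 3 pair differences were below 0 for 54 members and above 0 for 11. For these counts, and for the 61 of 73 above, no share over all tested genes is given, so they describe the members only. The labels give no batch for libraries 3, and what sets them apart was not tested.

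**Figure D5:**
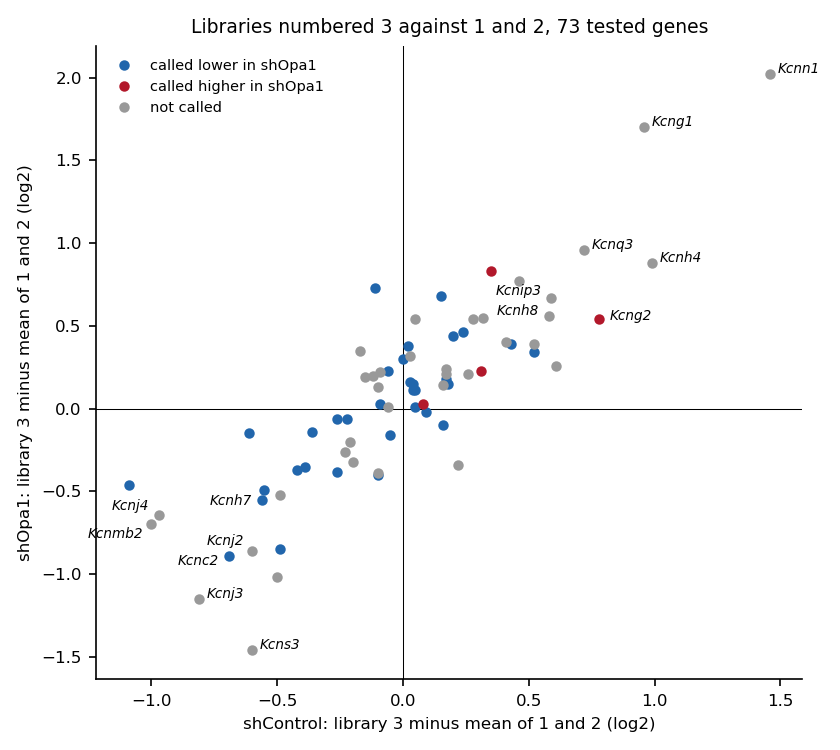
Log2 level of library 3 minus the mean of libraries 1 and 2 for each of the 73 tested members, in shControl (x axis) and shOpa1 (y axis), coloured by call between groups. Named genes differ by at least 0.5 in both groups. Points run from lower left to upper right, and 61 of 73 have the same sign in both groups.

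Genes outside the Kcn symbols that work with these channels were taken as 2 further lists. Of 24 listed channel partners 22 were tested, with 8 called lower, 4 higher and a median of -0.14, beside 20% and 18.9% of all tested genes. With the block 12 were called lower and 6 higher, beside 30.7% and 28.8% of all tested genes. Adam22, a receptor of the Kv1-binding complex at synapses, went from 273, 278 and 246 CPM to 89.7, 91.8 and 93.9 CPM. Its libraries were tightly grouped (log2 fold change -1.53, SE 0.0664, adjusted p = 2.53e-05). Cntn2, the adhesion molecule that gathers Kv1 beside nodes, went from 95.6, 110 and 107 CPM to 32.3, 33.9 and 39.3 CPM (-1.56, SE 0.0961, adjusted p = 6.96e-05). Ank3, the scaffold of the axon initial segment that holds Kv7, went from 410, 476 and 461 CPM to 261, 243 and 277 CPM. It had a log2 fold change of -0.79 (SE 0.0801, adjusted p = 0.000431). Nedd4l, a ubiquitin ligase that acts on Kv7, went from 138, 129 and 142 CPM to 77.0, 70.4 and 64.2 CPM (-0.95, SE 0.0825, adjusted p = 0.000230). In all 4 the groups were separate. Partners called higher were Cntnap1, Dlg2, Vapa and Vapb. Cntnap1 is an adhesion molecule that binds contactins beside nodes, and Dlg2 is a scaffold that binds Kv1. Vapa and Vapb anchor Kv2 at the endoplasmic reticulum. Cntnap1 went from 76.1, 90.2 and 89.0 CPM to 127, 146 and 154 CPM (0.74, SE 0.0989, adjusted p = 0.00129). Dlg2 went from 152, 128 and 161 CPM to 236, 205 and 207 CPM (0.56, SE 0.101, adjusted p = 0.00459). Vapa (0.26, adjusted p = 0.0165) and Vapb (0.19, 0.0285) also rose. Of 11 pumps and cotransporters, which restore or use the potassium gradient, 2 were called lower and 1 higher with a median of -0.03. With the block 4 were called lower and 4 higher. The shares over all tested genes were 20% and 18.9%, and 30.7% and 28.8% with the block. Atp1b2, a sodium pump beta subunit typical of glia, went from 287, 326 and 400 CPM to 190, 204 and 278 CPM, without overlap (-0.59, SE 0.177, adjusted p = 0.0368). Atp1b1, the main neuronal beta subunit, went from 1091, 1147 and 1223 CPM to 1325, 1394 and 1412 CPM (0.26, SE 0.0651, adjusted p = 0.0182).

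The remaining members were near the detection limit. Of the 21 that did not pass the filter, Kcnmb1 and Kcnk18 had no count in any library, and the highest value was 0.853 CPM, for Kcnj10 in shControl replicate 3. A floor of 3 counts corresponds to 0.0876 to 0.126 CPM in these libraries, covering counting error only. Exons of 14 members overlap other annotated genes over at least 5% of their length, and since the counting command sets no strand option, reads there cannot be assigned to 1 strand. Beside Kcna6 and Kcnmb4 these include Kcnk2 (12.2%), Kcng2 (9.10%), Kcnn2 (8.13%), Kcnk1 (8.01%), Kcnma1 (5.98%) and Kcnk3 (5.76%). In the authors' deposited table, 80 members have an adjusted p, 45 of them lower and 9 higher at 0.05. Over all genes, 7935 of 19398 with an adjusted p were called there. The share of all genes by direction is not given for that table. All 37 members called here have the same sign and are called there. Both fits used the same libraries, so this is no separate support.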

How the data were processed

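The deposited table of raw counts came from the authors' run of featureCounts 1.6.0, per the file headers, with read pairs, Ensembl 99 annotation of GRCm38 and no strand option. Libraries were stranded and polyadenylated, per the labels' protocols, and HISAT2, DESeq2 and mm10 are named in the submitters' processing notes. The authors also deposited a comparison table with a log2 fold change, a score (fold change over its error), p-values and a normalised signal (counts over a size factor). The gene length given by featureCounts, per the file headers, was used for levels per kilobase. Replicates were not pooled, and 0 columns lacked a sample.

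The members and all gene lists were chosen with earlier results of these data known. Of 55471 identifiers, 55144 were paired with a symbol through the reference tables, and biotype and coordinates came from GENCODE mouse release M21. Genes were tested in edgeR 4.0.16 under R 4.3.3 by the robust quasi-likelihood test after TMM scaling and its default filter on low counts, shOpa1 against shControl, adjusted by Benjamini-Hochberg over 16562 genes at 0.05. Standard errors are the log2 fold change over the square root of F. Pair differences used log2(CPM + 0.5), and library totals are the depth behind each value. Deviations from group means correlated at 0.519, 0.537 and 0.666 between libraries with the same number, so these were taken as pairs. The labels do not state this pairing. The main test does not use it, and the fit with the replicate block does. DESeq2 1.42.0 with replicate 3 as a second batch gave the authors' deposited log2 fold changes to within 1e-05 for all genes, with 0 exceptions. Values per library are given for up to 5 called members of each class with the smallest p, the 2 with the highest shControl level per kilobase, the 5 highest and 5 lowest called fold changes with at least 20 counts on average, Opa1, and up to 4 called genes of each further list. Kcnn1, Sst, Gad2, Slc32a1, Aif1, Cx3cr1, Csf1r, Cntnap1, Dlg2, Vapa and Vapb do not come from this rule: they were added once their values had been seen. Some genes chosen by this rule are counted but not reported here. The fits were tested on simulated data.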

Additional observations from a re-analysis of the deposited data

How the results depend on the processing

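Of the 37 called members, 26 were called with the same sign under every alternative run, and 27 without each library in turn. The replicate block, replicate 3 as a second batch, DESeq2 with and without that batch, DESeq2 size factors, a filter of 10 counts in 3 libraries and pairs 1 and 2 alone each called all 37, and the block changed no call other than by adding 20. Members called higher, 4 in the main test, numbered 8 with the replicate block, 8 with the batch term, 9 with DESeq2 and the batch term, 9 in pairs 1 and 2 alone, and 2 to 5 without each library. Members called lower, 33 in the main test, numbered 26 to 40 without each library. Over all genes 6442 calls became 9851 with the replicate block and 4589 to 6626 without each library. The median over all members was -0.30 with scaling by library size alone, where the median of all genes moved to 0.11, -0.32 with no low-count filter, -0.39 with DESeq2, -0.40 with DESeq2 and the batch term, -0.39 in pairs 1 and 2, and -0.46 to -0.40 without each library. In that order of settings, pore-forming Kv medians were -0.53 and -0.53, then -0.57 with DESeq2 and the batch term, and Kir medians -0.34, -0.43, -0.43, -0.43 and -0.48. Auxiliary medians were -0.50, -0.19, -0.43, -0.43 and -0.44, K2P and calcium- or sodium-activated medians -0.21 and -0.21 with scaling by library size alone, and the modulatory median 0.31 in pairs 1 and 2. No low-count filter raises the members in these medians from 73 to 92. DESeq2 gave 79, DESeq2 with the batch term gave 80, pairs 1 and 2 gave 74, and fits without a library gave 73 to 76. The auxiliary class held 12 members instead of 11 with DESeq2, with or without the batch term, and in pairs 1 and 2. It also held 12 without shControl replicate 1 or 3, or without shOpa1 replicate 1 or 3. The modulatory class held 7 members instead of 8 in pairs 1 and 2, where Kcng3 (-1.09 in the main test) was not tested. The part of the added or missing members in these shifts, and the cause of the other shifts, were not tested. Without each library in turn the medians ran from -0.74 to -0.57 (pore-forming Kv), -0.28 to 0.24 (modulatory), -0.53 to -0.39 (Kir), -0.36 to -0.31 (K2P), -0.35 to -0.28 (calcium- or sodium-activated) and -0.63 to -0.36 (auxiliary). Sign changes were seen only in members not called. With scaling by library size alone Kcnh2 became 0.05 and Kcnu1 0.09, and in pairs 1 and 2 Kcnu1 became 0.01 and Kcnk4 -0.07. Without each library, ranges spanned 0 or reached it for members including Kcns3 (-0.64 to 0.13), Kcna4 (-0.10 to 0.20), Kcnh2 (-0.15 to 0.02), Kcnh6 (-0.31 to 0.01), Kcne2 (-0.51 to 0.04), Kcnip4 (-0.05 to 0.11), Kcnu1 (-0.15 to 0.10), Kcnn1 (-0.38 to 1.36), Kcnj3 (-0.52 to 0.00), Kcnj4 (-0.17 to 0.27) and Kcnk4 (-0.02 to 0.13). Where leaving out a library left a group with 2, the fit shared its spread over both groups. The low-count filter left 21 members untested.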

Other observations

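Kcna7, a Kv1 gene best known from muscle, was too low for the main test. Its level was 0, 0 and 0.148 CPM in shControl and 0.612, 0.496 and 0.306 CPM in shOpa1. All shOpa1 libraries were above the controls, of which replicates 1 and 2 held no count. The authors' deposited table gives it an adjusted p of 0.00688, higher in shOpa1. Kcna7 is the single untested member with a value of 0 in 2 control libraries and above the floor of 3 counts in every shOpa1 library, and it was chosen after its values were seen.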
